A study of Homo sapiens with 12 samples.

Results

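PSPC1 knockdown in OCIAML5 was described from 4 of the 12 libraries of the series, chosen by their labels as the 2 PSPC1-knockdown and 2 control libraries of this line, and over all 16457 genes that passed a filter on low counts out of 60648 in the table. OCIAML5 is a human acute myeloid leukemia cell line. The cells of both groups were grown with 20% serum and with 10 ng/mL of human GM-CSF, and carried lentiviral hairpins, against PSPC1 in the knockdown cells and a control hairpin in the others. Cells that had taken up virus were selected with puromycin or sorted for GFP, and the labels do not say which was used here. Nothing in the labels tells whether paired libraries derive from independent cultures or hairpins, and the p-values therefore cover only the library-to-library spread, possibly technical. The same knockdown in 4 libraries of MOLM13, a line grown without added GM-CSF per the labels, and 2 control libraries of OCIAML5 from a second experiment of the series were used only to place the values.

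PSPC1 is an RNA-binding protein of paraspeckles, nuclear bodies built on the long non-coding RNA NEAT1, and it pairs with the related proteins NONO and SFPQ in transcription and RNA processing. GM-CSF is a myeloid growth factor. Its receptor joins a ligand-specific alpha chain (CSF2RA) to a signalling beta chain (CSF2RB) that it shares with the interleukin 3 and interleukin 5 receptors, and the beta chain works through the kinase JAK2. The signal branches to STAT5, to the RAS and ERK kinases and to PI3K and AKT, and in myeloid cells it sustains survival, growth and nutrient uptake.

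Levels are given as CPM, read counts relative to the size of each library, with library sizes scaled by the trimmed mean of M values, and every pair of values is that of the 2 libraries of a group. A gene was called when its adjusted p in edgeR's quasi-likelihood test was under 0.05, over a fit of 8 libraries in 4 groups with 4 residual degrees of freedom. Fold changes are log2 of knockdown over control, ± SE. Total counts were 22.7 and 17.1 M in the knockdown libraries and 18.5 and 15.8 M in the controls. PSPC1 (GRCh38 chromosome 13, 19674752 to 19783019) had 18.9 and 19.2 CPM in the knockdown libraries, against 99.1 and 98.8 CPM in the controls (-2.38 ± 0.07, adjusted p = 2.9e-31). Transcripts of the mitochondrial genome, ribosomal RNA included, took 14.3% of counts in both knockdown libraries and 12% and 10.8% in the controls. Of 12 myeloid markers, 10 reached 10 counts in a library, among them PTPRC, CD33 and both GM-CSF receptor chains, while KIT and ANPEP, the gene of CD13, did not. Markers of other cells, summed without TMM scaling, stayed low. The summed 10 packaging-cell and epithelial markers had 0.22 and 0.468 CPM in the knockdown libraries and 0 and 0.0631 in the controls, with 5 of them at 0 in all 4 libraries. The summed 11 erythroid markers had 0.396 and 0.0585 CPM in the knockdown libraries, against 0 and 0.126 in the controls, with 6 at 0. The summed 10 T and NK markers had 2.2 and 2.46 CPM in the knockdown libraries, against 2.97 and 3.35 in the controls. Most of this was NKG7 and, in the controls, TRAC, while CD3D was at 0. The summed 8 megakaryocyte markers had 14.2 and 16.1 CPM in the knockdown libraries, against 15.9 and 17 in the controls. Most of this was ITGA2B, with 223 and 195 counts after knockdown and 241 and 221 in controls, while PF4 and PPBP were at 0. The part of these cells in the results was not tested. The summed 8 B lymphocyte markers had 13.8 and 14.7 CPM in the knockdown libraries, against 23.5 and 25.8 in the controls, nearly all of it PAX5, while MS4A1, CD79B and EBF1 were at 0.

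The question was how the RNA of this GM-CSF-grown line responds when PSPC1 is depleted. Of the 16457 genes, 9214 (56%) were called, 4533 higher (27.5%) and 4681 lower (28.4%). At a minimum of 2-fold, 9.47% were higher and 9.59% lower, and the knockdown and control libraries did not overlap for 75.8% of all genes. The median log2 fold change over all genes was 0.017 and the median size of a change, up or down, was 0.52. The gene lists below were read against these shares. The library kit marks strand, per the labels, but no source used here says whether reads were counted by strand, so values of genes that overlap an abundant neighbour are uncertain. Of the genes described below this holds for CISH, CLOCK, ETV5, FADS1, FAS, GPR34, HOXA9, IFNGR2, KIF18A, PC, HLA-B, PTPN11, SH2B3, SREBF1, TSC2 and VPS52, each with a neighbour at 50% or more of its own level. Genes whose symbols had no match in GENCODE release 29, AARS1 and DIPK1C among them, were not checked for overlap. In bulk RNA fewer cells of a kind and less RNA per cell cannot be told apart.

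The receptors through which the medium's growth factor acts did not move together. CSF2RA, the ligand-specific chain, had 8.9 and 6.61 CPM in the knockdown libraries, against 23.6 and 24 CPM in the controls (-1.60 ± 0.13, adjusted p = 1.2e-15). CSF2RB, the shared signalling chain, had 79.9 and 80.1 CPM after knockdown, against 66.7 and 62.7 CPM in the controls (0.31 ± 0.08, adjusted p = 0.00054). So the alpha chain fell while the beta chain rose slightly. The groups overlapped for neither gene, which held for 75.8% of all genes. IL3RA, the interleukin 3 chain, fell by 0.39 on the log2 scale, and IL5RA had too few counts to be tested. In MOLM13 the log2 fold change of CSF2RA was 0.09 and not called (adjusted p = 0.5), and the difference of OCIAML5 minus MOLM13 was -1.69 (adjusted p = 6.1e-12). In the second experiment's controls CSF2RA stood at 10 and 9.67 CPM and CSF2RB at 54.1 and 47.1 CPM, scaled within their own table. The CSF2RA level there was thus much nearer to the knockdown libraries than to their own controls, and this gap between the 2 sets of controls has no test.

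Among the other hematopoietic cytokine and growth factor receptors, 20 of 32 tested genes fell and 7 rose, with a median of -0.83, against 28.4% lower and 27.5% higher over all genes. FLT3, the receptor kinase of early myeloid and lymphoid cells, had 25.9 and 25.5 CPM in the knockdown libraries and 234 and 244 CPM in the controls. IFNGR1, the ligand-binding chain of the interferon gamma receptor, had 50.2 and 50 CPM after knockdown, against 136 and 137 CPM in the controls, and IL6R, the interleukin 6 receptor, had 261 and 261 CPM after knockdown and 581 and 575 CPM in controls. In each of the 3 the knockdown libraries lay well below both controls. IL17RA (-0.88), INSR, the insulin receptor (-1.05), TNFRSF1B (-0.78), CSF3R, the G-CSF receptor (-0.69), and CSF1R, the M-CSF receptor (-0.24), also fell. The largest fold changes among these receptors were at low levels, as for IL2RA, the interleukin 2 receptor alpha chain, with 0.292 and 0.333 CPM after knockdown and 8.48 and 9.42 CPM in controls, and IL7R with 0.292 and 0.278 CPM after knockdown and 6.14 and 8.35 CPM in controls. In the second experiment's controls IL7R was similar, at 5.42 and 4.32 CPM, but IL2RA stood at only 0.602 and 0.636 CPM and FLT3 at 67 and 69.2 CPM. TGFBR2, the type II receptor for TGF-beta, ran the other way with 233 and 237 CPM after knockdown, against 116 and 124 CPM in the controls, and IL6ST, the signalling chain of the interleukin 6 family (0.68), IL13RA1 (0.49), IFNGR2 (0.38) and IFNAR1 (0.35) rose as well. For interferon gamma the 2 receptor chains therefore changed in opposite directions.

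**Figure D1:**
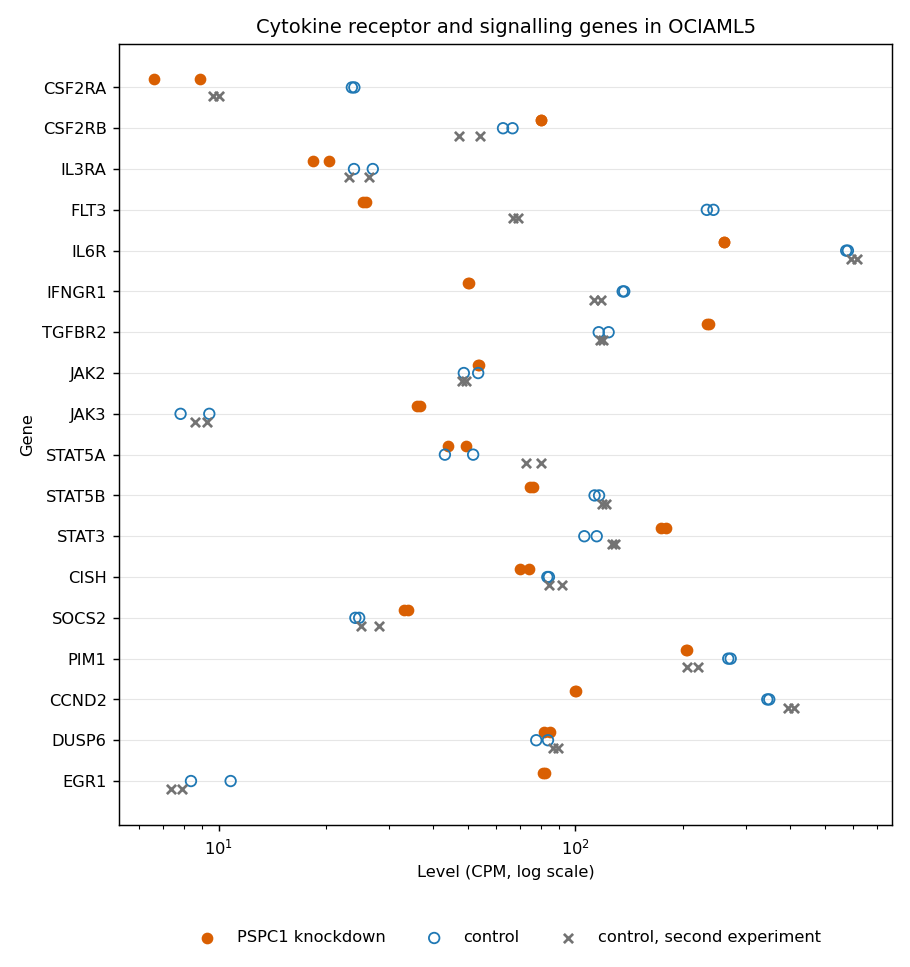
Levels of cytokine receptor and signalling genes in each library (CPM, log axis), with PSPC1 knockdown of OCIAML5 as filled orange circles, its controls as open blue circles and the controls of the second experiment as grey crosses, 2 libraries each. FLT3, IL6R, IFNGR1 and CSF2RA lie lower in the knockdown libraries and JAK3, EGR1 and TGFBR2 higher, while STAT5A and CISH lie close together.

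Inside the cell, the kinases and factors of the JAK and STAT pathway were higher in 10 of 17 cases and lower in 5 (median 0.30). JAK3, the kinase that pairs with the common gamma chain, had 36.6 and 36 CPM in the knockdown libraries and 7.83 and 9.42 CPM in the controls (2.08 ± 0.15, adjusted p = 2.8e-17). In MOLM13 its log2 fold change was -0.58 and not called (adjusted p = 0.085), and the difference between the lines was 2.66 (adjusted p = 3.7e-09). STAT3, which carries interleukin 6 signals, also rose, with 180.1 and 174 CPM after knockdown and 106 and 115 CPM in controls. JAK2, the kinase of the GM-CSF receptor, had 53.7 and 53.2 CPM after knockdown, against 48.7 and 53.4 CPM in the controls and was not called (0.07 ± 0.07, adjusted p = 0.45). STAT5A was not called either (-0.01, adjusted p = 0.91), while STAT5B fell by 0.61. The adaptor SH2B3, a brake on JAK2, fell by 1.17, and PTPN11, the phosphatase SHP2 that links receptors to RAS, fell by 0.93 on the log2 scale.

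Genes that STAT5 induces after cytokine stimulation went both ways in OCIAML5, with 8 of 15 lower and 4 higher (median -0.40). CISH, a feedback inhibitor and one of the most direct readouts of STAT5, had 74.2 and 70.1 CPM in the knockdown libraries, against 83.5 and 84.3 CPM in the controls, a called but small change (-0.22 ± 0.07, adjusted p = 0.0089). The call was lost without knockdown library 2 (-0.18, adjusted p = 0.091) and under scaling by library size alone (-0.13, adjusted p = 0.109). SOCS2, another STAT5-induced feedback gene, rose slightly, with 34 and 33.1 CPM after knockdown and 24.2 and 24.8 CPM in controls. PIM1, a survival kinase, fell by 0.40, PIM2 was not called (0.02, adjusted p = 0.89), and CCND2, cyclin D2, had 101 and 100.1 CPM after knockdown, against 349.6 and 345 CPM in the controls. MCL1, which protects from apoptosis, had 517 and 536 CPM after knockdown, against 278 and 287 CPM in the controls, with both knockdown libraries higher. In MOLM13 all 3 of CISH, PIM1 and SOCS2 fell, with log2 fold changes of -1.57, -2.66 and -0.56 in that order, and the differences between the lines were 1.35, 2.26 and 1.01, all called. No value here measured the phosphorylation of STAT5.

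On the ERK branch 8 of 21 feedback and target genes rose (38.1%, against 27.5% of all genes) and 7 fell (33.3%, against 28.4%), with a median of -0.20. DUSP6, the ERK phosphatase that tracks pathway output, had 84.7 and 81.7 CPM in the knockdown libraries, against 77.7 and 83.8 CPM in the controls (adjusted p = 0.64), and the 2 groups overlapped. SPRY2 and ETV5 were not called (-0.15 and -0.24). EGR1, an immediate early factor, had 81.3 and 82.5 CPM after knockdown, against 8.37 and 10.8 CPM in the controls (3.10 ± 0.10), and DUSP10, a phosphatase of p38 and JNK, had 3.26 and 3.89 CPM after knockdown and 17.6 and 16.2 CPM in controls. EGR1 thus rose while no change of DUSP6 was called.

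The PI3K, AKT and mTOR genes were called higher in 10 and lower in 9 of 25 cases (median 0.07). SESN3 and SESN1, sestrins that restrain the mTOR complex sensing amino acids, rose, SESN3 with 99.1 and 96.2 CPM after knockdown, against 26.2 and 25.7 CPM in the controls and SESN1 by 1.10. PIK3IP1, an inhibitor of PI3K, rose by 1.30 and TSC2, another brake on mTOR, by 0.62, while MTOR itself rose by 0.63. EIF4EBP1, a repressor of translation that mTOR switches off, had 44.9 and 48.1 CPM after knockdown and 149 and 153 CPM in controls and DDIT4 had 4.34 and 3.78 CPM after knockdown, against 22.7 and 25.2 CPM in the controls, both lower in the knockdown libraries. The second experiment's controls had 70.6 and 75.4 CPM for SESN3 and 3.64 and 4.53 CPM for DDIT4, in both cases nearer to the knockdown level. In MOLM13 SESN3, SESN1 and PIK3IP1 were not called, with log2 fold changes of 0.12, 0.13 and -0.34 in that order, and each differed between the lines (differences 1.79, 0.97 and 1.64, adjusted p at most 4.9e-07).

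Among FOXO targets and quiescence genes 10 of 24 rose and 6 fell (median 0.03), and the 2 alpha-arrestins TXNIP and ARRDC4, which lower glucose uptake, led the rises. TXNIP (chromosome 1, 145992435 to 145996600) had 495 and 471 CPM in the knockdown libraries and 37.9 and 34.8 CPM in the controls (3.73 ± 0.06, adjusted p = 2e-44). ARRDC4 (chromosome 15, 97960698 to 97973838) had 47.4 and 43.7 CPM after knockdown, against 8.48 and 8.03 CPM in the controls (2.46 ± 0.11). Both were clear of the controls in this experiment, as were 75.8% of all genes. The second experiment's controls, however, stood at 146 and 143 CPM for TXNIP and 40.9 and 43.1 CPM for ARRDC4, so ARRDC4 there was close to its knockdown level. BTG2, an antiproliferative gene, rose by 1.58, GABARAPL1 by 2.42 and YPEL5 by 1.22, whereas IRS2, the insulin receptor substrate, fell by 1.46 and KLF9 by 1.53. TXNIP and ARRDC4 are known targets of the glucose-responsive factors MondoA and ChREBP, which bind paired E-boxes, so their promoters are shown. The sequences are from RefSeq (GRCh38.p14), 250 bases before to 50 bases after the gene start, read 5′ to 3′ on the gene's strand, which is minus for TXNIP and plus for ARRDC4. Capitals mark, on either strand, a pair of CACGNG boxes with 5 bases of any kind between them in TXNIP (chr1:145996530-145996829) and the E-box CACGTG in ARRDC4 (chr15:97960453-97960752).
TXNIP: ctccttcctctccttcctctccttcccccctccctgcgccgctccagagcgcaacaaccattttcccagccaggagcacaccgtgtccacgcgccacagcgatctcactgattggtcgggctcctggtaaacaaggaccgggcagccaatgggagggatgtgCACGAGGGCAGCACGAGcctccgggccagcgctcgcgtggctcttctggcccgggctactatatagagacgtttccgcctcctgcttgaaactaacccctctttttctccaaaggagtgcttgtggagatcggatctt
ARRDC4: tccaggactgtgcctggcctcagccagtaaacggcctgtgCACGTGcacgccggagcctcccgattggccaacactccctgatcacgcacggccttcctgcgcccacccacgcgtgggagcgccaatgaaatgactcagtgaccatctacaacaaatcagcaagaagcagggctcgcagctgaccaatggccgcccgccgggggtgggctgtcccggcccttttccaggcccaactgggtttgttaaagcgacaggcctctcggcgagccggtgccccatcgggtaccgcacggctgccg
The paired element occurred in 0.057% of 35116 RefSeq promoters of this length and CACGTG in 7.26%. Of the 10764 tested genes with a promoter in the table, CACGTG was present in 11.2% of those called higher, 14.3% of those called lower and 12.1% of those not called. The paired letters were not found in the ARRDC4 window. A match describes the letters only.

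Genes of amino acid supply fell across several enzyme classes. Of 20 amino acid transporters, 13 fell and 3 rose (median -0.57), with SLC1A5, the glutamine transporter, at 110.0 and 105 CPM in the knockdown libraries and 293 and 299.8 CPM in the controls, and SLC43A1 at 20.7 and 23.4 CPM after knockdown and 76.4 and 80 CPM in controls. SLC43A2, a related exporter of large neutral amino acids, rose, with 76.6 and 80.5 CPM after knockdown, against 27.6 and 26.6 CPM in the controls. Of 17 serine, glycine and folate carbon enzymes, 15 fell and none rose (median -1.08), and ALDH1L2, a mitochondrial folate enzyme, had 38.2 and 38.1 CPM after knockdown, against 289 and 272 CPM in the controls, while the second experiment's controls had 58.1 and 61.7 CPM. Of 23 cytosolic aminoacyl-tRNA synthetases and partners, 19 fell and 2 rose (median -0.69), with AARS1, the alanine enzyme, at 125 and 123 CPM after knockdown and 391 and 409 CPM in controls, with 173 and 177 CPM in the second experiment's controls. RARS1, the arginine enzyme, rose by 0.38. Of 26 nucleotide synthesis enzymes, 22 fell, and the only one called higher was RRM2B (1.67), the p53-induced ribonucleotide reductase subunit. PAICS, of purine synthesis, had 130.4 and 133 CPM after knockdown, against 513 and 504 CPM in the controls. For these 4 lists the share called lower was 65.0% to 88.2%, against 28.4% of all genes.

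Single genes of this group changed far more than the list medians. ASS1, argininosuccinate synthase, which makes the precursor of arginine, had 7.89 and 8.22 CPM in the knockdown libraries and 113 and 119.9 CPM in the controls (-3.86 ± 0.08, adjusted p = 2.1e-39). STC2, a secreted glycoprotein of the stress response, had 8.9 and 8.95 CPM after knockdown, against 86.3 and 93.1 CPM in the controls. CHAC1, which degrades glutathione, had 1.84 and 1.11 CPM after knockdown, against 34.3 and 31.9 CPM in the controls (chromosome 15, 40952962 to 40956519; -4.44 ± 0.20). All 3 separated the groups completely within the experiment, as did 75.8% of all genes. Yet the second experiment's controls stood at 34.9 and 32.4 CPM for ASS1, 26.3 and 25.8 CPM for STC2 and 0.602 and 0.848 CPM for CHAC1. PSAT1, of serine synthesis, likewise had 44.6 and 45.8 CPM after knockdown and 368 and 390.2 CPM in controls, with 117 and 121 CPM in the second experiment's controls. For ASS1, STC2 and PSAT1 the second experiment's controls thus lay between the knockdown libraries and their own controls, and for CHAC1 below both. What set the 2 sets of controls apart was not tested. In MOLM13, against its own controls, CHAC1 (-3.38), ASS1 (-2.14) and STC2 (-2.16) fell as well. CHAC1 is a textbook target of ATF4, and its promoter (RefSeq, GRCh38.p14, chr15:40953221-40953520, plus strand) is shown with the amino acid response core TGATGNAAN in capitals, found here on the opposite strand. The RefSeq start used here lies downstream of the GENCODE start given above.
CHAC1: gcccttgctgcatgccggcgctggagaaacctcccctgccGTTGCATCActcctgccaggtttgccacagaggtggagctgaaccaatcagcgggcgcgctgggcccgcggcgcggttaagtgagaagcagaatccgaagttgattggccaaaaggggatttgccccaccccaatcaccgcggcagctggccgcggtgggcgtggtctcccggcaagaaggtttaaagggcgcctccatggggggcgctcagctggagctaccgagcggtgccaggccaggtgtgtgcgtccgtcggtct
This core occurred in 3.61% of all promoters, in 1.82% of tested genes called higher, 3.66% of those called lower and 2.66% of those not called.

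**Figure D2:**
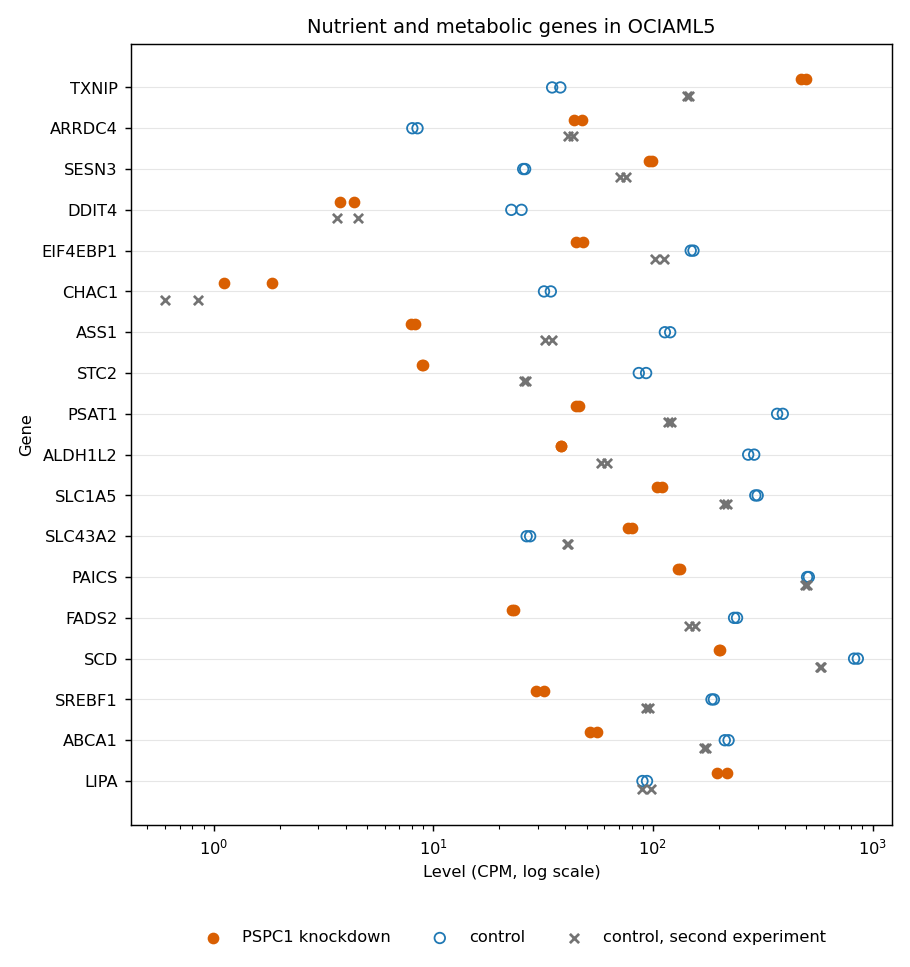
Levels of nutrient and metabolic genes in each library (CPM, log axis), with PSPC1 knockdown as filled orange circles, its controls as open blue circles and the second experiment's controls as grey crosses, 2 libraries each. For CHAC1, ASS1 and ARRDC4 the second experiment's controls lie away from the controls of the knockdown experiment, while for ABCA1 and SCD they lie nearer to them than to the knockdown libraries.

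Genes of the fatty acid and lipid list were mostly lower. In this list, which also holds the cholesterol exporter ABCA1, 18 of 25 fell and 1 rose (median -0.84). FADS2, a desaturase that makes polyunsaturated fatty acids, had 22.8 and 23.4 CPM in the knockdown libraries and 234 and 242 CPM in the controls, and its neighbour FADS1 fell by 2.39. SCD, the desaturase of saturated fatty acids, had 199.6 and 203 CPM after knockdown and 857 and 824 CPM in controls, and SREBF1, the factor that drives these genes, had 29.4 and 32 CPM after knockdown, against 185 and 189 CPM in the controls. ABCA1, the cholesterol exporter that oxysterols induce, fell at the same time, with 55.6 and 52 CPM after knockdown, against 221 and 212 CPM in the controls (-2.01 ± 0.07). In MOLM13 ABCA1 fell as well (-0.57, adjusted p = 2.4e-08), and the difference of the 2 lines was -1.44 (adjusted p = 4.3e-16). NPC1, the lysosomal cholesterol carrier, fell by 1.38. The 1 member that rose was GPAM, of glycerolipid synthesis (0.52).

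Mitochondrial ribosome genes were mostly lower, while the respiratory chain subunits had few calls. Of 42 mitochondrial ribosome genes 26 fell and 2 rose (median -0.33), with MRPL17 at 11.3 and 12.9 CPM in the knockdown libraries and 38 and 41.8 CPM in the controls. Of 33 subunits of complexes I and V, 11 fell, 3 rose and 19 were not called, with a median of -0.04 and a range from -0.66 for NDUFB7 to 0.44 for NDUFA8. Under scaling by library size alone the balance turned, with 8 higher, 7 lower and a median of 0.04. In the citric acid cycle list 13 of 31 fell and 6 rose (median -0.12). PC, pyruvate carboxylase, had 2.76 and 3.83 CPM after knockdown and 11.6 and 13 CPM in controls and IDH2 had 101 and 95.5 CPM after knockdown, against 225 and 235 CPM in the controls. The respiratory chain list thus had 42.4% of its genes called, against 56% of all genes, while messages of the mitochondrial genome filled more of each knockdown library, MT-CO1 with 29794 and 29802 CPM after knockdown, against 21948 and 19584 CPM in the controls. Among these, MT-ND2 fell (4589 and 4564 CPM after knockdown and 5758 and 5144 CPM in controls), the 1 mitochondrial message among the 10 largest losses in CPM.

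Lysosome and autophagy genes were among the groups that rose. Of 41 lysosome genes 25 rose and 6 fell (median 0.33, against 0.017 for all genes). LIPA, lysosomal acid lipase, had 217 and 195 CPM in the knockdown libraries and 89.6 and 94 CPM in the controls. IDUA, which degrades glycosaminoglycans, had 46.1 and 42.6 CPM after knockdown and 12.2 and 10.2 CPM in controls, and SMPD1, acid sphingomyelinase, had 20.4 and 18.9 CPM after knockdown, against 5.76 and 5.12 CPM in the controls. CTSS, a cathepsin of antigen-presenting cells, rose by 0.87, while CTSB and CTSD were not called (0.05 and 0.16). LIPA was not called in MOLM13 (0.08) and differed between the lines (difference 1.09, adjusted p = 3.4e-16). The lysosome list as a whole also rose in MOLM13, with 28 genes higher and 5 lower (median 0.44). Of 31 autophagy genes 21 rose and 6 fell (median 0.36), and in MOLM13 22 rose and 4 fell (median 0.37). GABARAPL1, an LC3-family protein of the autophagosome, had 18.5 and 16.7 CPM after knockdown, against 3.53 and 3.03 CPM in the controls, and MAP1LC3B, TFE3 and WIPI1 rose by 0.80, 1.14 and 1.82. TFEB, another factor of lysosomal genes, was called lower (-0.32, adjusted p = 0.04), a call that did not hold under DESeq2 (adjusted p = 0.0774), scaling by library size alone (0.131), no filter on low counts (0.082) or in the 4 OCIAML5 libraries alone (0.0579), the last 3 values also being adjusted p-values. It was lost as well without knockdown library 1 (-0.31), knockdown library 2 (-0.34) or control library 2 (-0.25).

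When all genes were grouped by the letters of their symbol before the first digit, 126 stems had at least 12 tested genes, and vesicle and peroxisome genes were among the groups with the highest net share of rises. This grouping was made after values were seen and has no test. Of 37 VPS genes, most of which sort cargo between endosome, Golgi and lysosome, 24 rose and 2 fell (median 0.28). VPS45, which guides membrane fusion at endosomes, had 51.2 and 51.1 CPM in the knockdown libraries and 22.9 and 19.8 CPM in the controls, and VPS52, of the Golgi-tethering GARP complex, had 63 and 65.7 CPM after knockdown and 34.7 and 33.6 CPM in controls. Of 16 PEX genes, mostly of peroxisome assembly, 8 rose and none fell, with PEX19 at 77.4 and 75.9 CPM after knockdown and 40.1 and 36.4 CPM in controls. Of 27 SEC genes, most of them of the secretory pathway, 16 rose and 3 fell, and SEC31B, from the coat of transport vesicles, rose most, with 73.9 and 79.2 CPM after knockdown and 27.4 and 23.9 CPM in controls. Of 18 STX genes, mostly syntaxins, 9 rose and 1 fell, with STX16 at 143 and 141 CPM after knockdown and 65.5 and 66.7 CPM in controls. The medians of these 4 groups lay between 0.28 and 0.51. At the other end stood nucleoporins (NUP), mitochondrial ribosome (MRPS), RAD, centrosome (CEP, 21 of 38 lower and 3 higher), snoRNA host (SNHG) and Kruppel-like factor genes. In the last group 8 of 14 fell and 2 rose, with KLF13 at 208 and 209.7 CPM after knockdown and 290.5 and 278 CPM in controls and KLF10, a TGF-beta-induced member, higher at 29.2 and 24.1 CPM after knockdown and 8.48 and 6.32 CPM in controls.

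**Figure D3:**
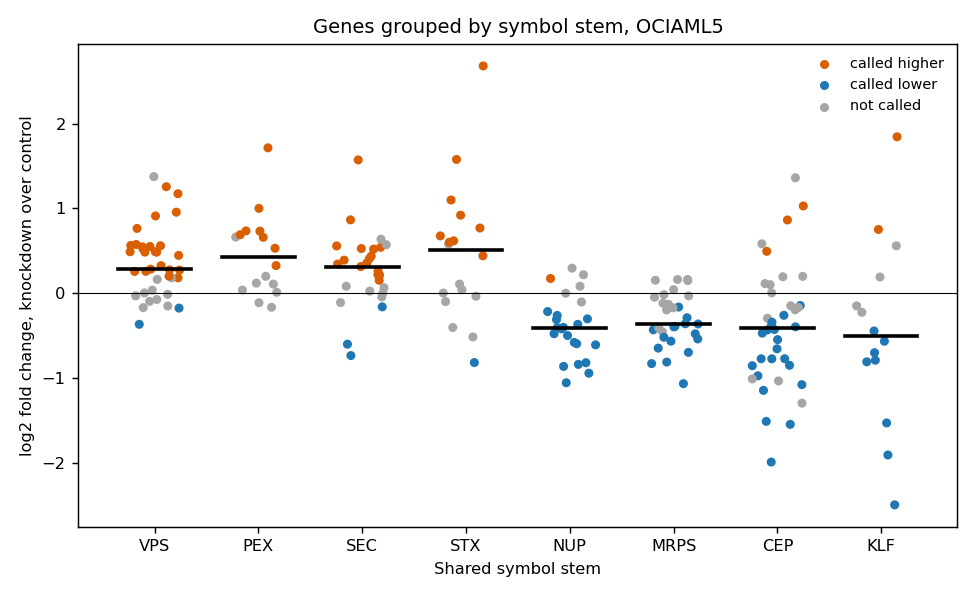
Log2 fold change of every tested gene (grey where not called, orange where called higher, blue where called lower) in groups that share a symbol stem, with the group median as a black bar. VPS, PEX, SEC and STX genes lie mostly above 0 and NUP, MRPS, CEP and KLF genes mostly below.

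The G1 control list held 18 of 26 genes lower and 3 higher (median -0.68), the rises being CDKN1A, CCND3 and E2F4. The call of E2F4 was lost without control library 2 (0.11, adjusted p = 0.166). Cyclin D3 (CCND3), with 79.6 and 79 CPM after knockdown and 64.5 and 68.2 CPM in controls, thus ran against cyclin D2, and CDK6, the D cyclins' kinase, fell by 0.33. CDKN1B, the inhibitor p27, was not called (78.9 and 84.5 CPM after knockdown and 83.6 and 80.4 CPM in controls, adjusted p = 0.94). Of 29 BCL2-family and death genes 19 rose and 5 fell (median 0.58). FAS, a death receptor, had 45.1 and 45 CPM in the knockdown libraries and 8.64 and 10.9 CPM in the controls, and CASP8, the caspase it activates, had 65.7 and 67.5 CPM after knockdown and 28.3 and 27.6 CPM in controls. CFLAR, which blocks that caspase, rose too, with 165 and 177 CPM after knockdown and 83.5 and 80.9 CPM in controls, as did XIAP, an inhibitor of later caspases, with 97.9 and 96.3 CPM after knockdown and 42.4 and 42.7 CPM in controls. BCL2 had 113 and 106 CPM after knockdown, against 331 and 330.2 CPM in the controls, and the proapoptotic BCL2L11 (BIM) fell by 1.06 while BAX rose by 1.13 and BBC3 (PUMA) by 0.83. Members that promote death and members that block it therefore both rose, and no value here measured cell death.

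Transcription factors of blood cells were mostly lower: 25 of 35 fell and 2, SPI1 and BACH1, rose (median -0.65). MYB, a factor of progenitor growth, had 125 and 122 CPM in the knockdown libraries and 394 and 388 CPM in the controls. ZEB2 had 190.4 and 188 CPM after knockdown and 409 and 380.4 CPM in controls and FLI1, an ETS factor, had 105 and 104 CPM after knockdown, against 249 and 244 CPM in the controls. RUNX1 fell by 0.77, GFI1 by 0.93 and LMO2 by 0.99, while GATA2 and HOXA9 were not called (0.09 and 0.09). IRF8, the factor of monocyte and dendritic fates, had 97.6 and 96.7 CPM after knockdown and 342 and 354 CPM in controls, and its difference from MOLM13 was -1.94 (adjusted p = 6.9e-29). The change of SPI1 was small (0.13 ± 0.05, adjusted p = 0.023), and its call was lost under DESeq2 (adjusted p = 0.0617), in the 4 OCIAML5 libraries alone (adjusted p = 0.0591), without knockdown library 2 (0.07) and without control library 2 (0.05).

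Myeloid surface genes changed in both directions. Of 23 tested monocyte and macrophage genes 10 fell and 4 rose (median -0.25), and CD14, CD68 and CD163 had too few counts to be tested. CCR2, the chemokine receptor of inflammatory monocytes, had 6.52 and 4.95 CPM in the knockdown libraries and 53.6 and 50.7 CPM in the controls, and VCAN, a proteoglycan of classical monocytes, had 3.97 and 5.89 CPM after knockdown and 44.7 and 38.1 CPM in controls. MPEG1, a macrophage pore-forming protein, had 432 and 442 CPM after knockdown, against 871 and 857 CPM in the controls, and fell by 0.98, whereas in MOLM13 it rose (1.08; difference -2.07, adjusted p = 3.3e-16). ITGAX (CD11c) and ITGAM (CD11b) rose by 1.17 and 0.51, while CD33 and LYZ were not called. Neutrophil granule genes were near the floor in this line, with 12 of 22 not tested, and of the 10 tested 6 fell and 1 rose. RNASE2 had 4.85 and 3.95 CPM after knockdown and 14.3 and 13.7 CPM in controls and AZU1 was the 1 that rose, with 9.36 and 7.39 CPM after knockdown, against 1.79 and 3.86 CPM in the controls.

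Inhibitory receptors fell more often than they rose, while pattern receptors went both ways. Of 19 SIGLEC, LILR and related receptors 11 fell and 2 rose (median -0.91). LILRB4, a checkpoint-like receptor of monocytic leukemia, had 52.3 and 46.7 CPM in the knockdown libraries and 129 and 135 CPM in the controls, LILRA2 had 14.2 and 14.1 CPM after knockdown and 50.8 and 55.4 CPM in controls, and LAIR1, a collagen receptor, had 111 and 108 CPM after knockdown and 247 and 246 CPM in controls. In MOLM13 these 3 rose, LILRB4 by 0.49, LILRA2 by 0.60 and LAIR1 by 0.18, and each difference between the lines was called (-1.90, -2.51 and -1.36). SIGLEC6 had 3.17 and 6.28 CPM after knockdown, against 84.7 and 76.9 CPM in the controls, but only 10.6 and 11.7 CPM in the second experiment's controls. Of 25 pattern receptors and adaptors 11 fell and 9 rose (median 0.14, against 0.017 for all genes). CD180, a Toll-like receptor relative, and its partner LY86 both fell, CD180 with 39.1 and 38.3 CPM after knockdown and 131 and 128 CPM in controls and LY86 with 8.27 and 9.61 CPM after knockdown and 46.3 and 40.7 CPM in controls, whereas TLR6 rose with 25.2 and 22.9 CPM after knockdown and 7.61 and 5.69 CPM in controls. In MOLM13 LY86 rose by 1.02, so the lines moved in opposite directions (difference -3.31, adjusted p = 7.3e-22).

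In antigen presentation, 7 of 12 class II genes fell and none rose (median -0.23). CIITA, their activator, had 32.3 and 35.5 CPM in the knockdown libraries and 170.2 and 164 CPM in the controls (-2.31 ± 0.08), but HLA-DRA had 511 and 503 CPM after knockdown and 561 and 614 CPM in controls and CD74 had 2365 and 2402 CPM after knockdown and 2806 and 2847 CPM in controls. The class II messages thus changed far less than that of their activator. Class I presentation genes rose in 6 and fell in 4 of 16 cases, where HLA-B rose by 0.70 and B2M by 0.47 and TAP2 fell by 1.01 and NLRC5, the class I activator, by 0.89. The immunoproteasome subunits PSMB8 and PSMB9 fell by 0.55 and 0.62, among 38 proteasome genes of which 8 rose and 9 fell (median -0.05). Under scaling by library size alone 10 proteasome genes were higher and 4 lower (median 0.03). PSMB9 overlaps more abundant neighbours, so its value is uncertain. PSMB5, the constitutive subunit that PSMB8 replaces, had 78.2 and 82.9 CPM after knockdown, against 26.5 and 32.6 CPM in the controls (1.45 ± 0.08), the largest change of the list.

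Of 30 integrins and adhesion molecules 12 fell and 8 rose (median -0.25). ITGA4, the alpha 4 chain that binds VCAM1, had 534 and 521 CPM in the knockdown libraries and 1039 and 1034 CPM in the controls, while ITGB1, its beta chain, rose with 307 and 311 CPM after knockdown and 191 and 189 CPM in controls. SELPLG, the selectin ligand, fell by 1.44 and ITGAL, the alpha chain of LFA-1, by 0.79. Of 23 tested chemokines and cytokines 8 fell and 6 rose, against 6 lower and 7 higher under scaling by library size alone. IL1RN, the interleukin 1 receptor antagonist, had 11.2 and 9.72 CPM after knockdown and 46.5 and 46.5 CPM in controls, and VEGFA had 23.5 and 23.4 CPM after knockdown and 75.8 and 70.4 CPM in controls, with 45.1 and 42 CPM in the second experiment's controls. Among 27 purinergic, lipid and chemotactic receptors 13 fell and 7 rose. P2RY8, a receptor that holds germinal centre B cells in place, had 88.4 and 83.9 CPM after knockdown and 206 and 207 CPM in controls, and CXCR2, the interleukin 8 receptor, was higher with 62 and 64.1 CPM after knockdown and 33 and 35.5 CPM in controls.

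**Figure D4:**
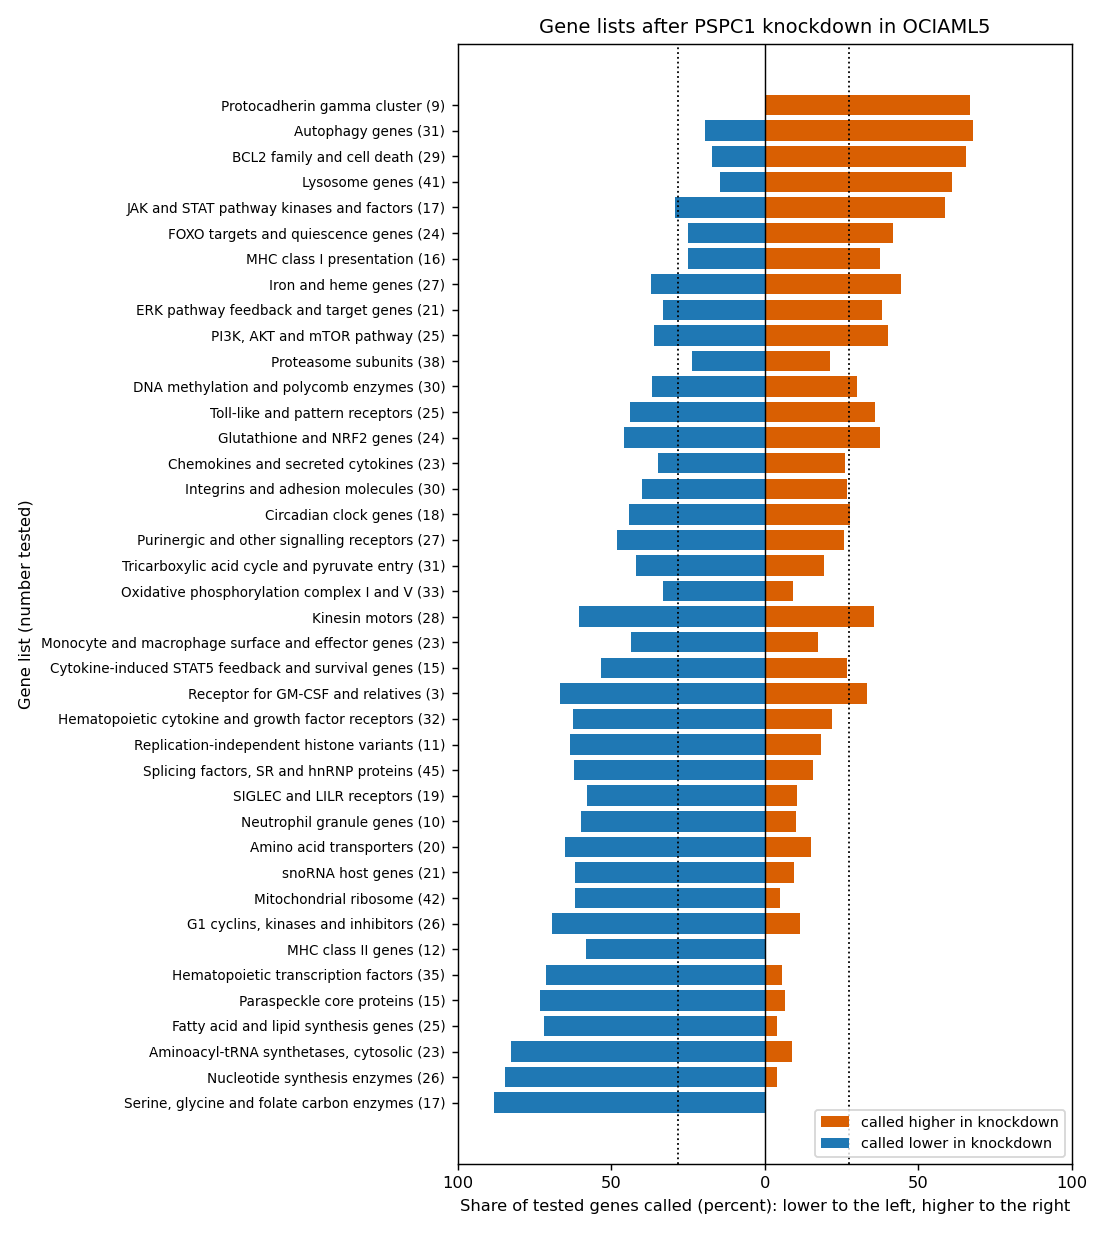
Share of tested genes called higher (orange, to the right) and lower (blue, to the left) in each gene list, in percent, with the number tested in brackets and lists ordered by net share. The dotted lines mark the shares over all genes, 27.5% higher and 28.4% lower.

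Genes of RNA processing mostly fell by small amounts. Of 45 splicing factors 28 fell and 7 rose (median -0.25), with HNRNPF lowest, at 131 and 123 CPM in the knockdown libraries and 374 and 389 CPM in the controls, and SRSF5 highest, at 462 and 447 CPM after knockdown and 223 and 227 CPM in controls. Of 15 paraspeckle genes, PSPC1 included, 11 fell. NONO, a direct partner of PSPC1, was not called (550.3 and 555 CPM after knockdown and 582 and 579 CPM in controls, adjusted p = 0.13), and SFPQ, the other, had 663 and 659.5 CPM after knockdown, against 935 and 889 CPM in the controls. NEAT1 was the 1 member that rose (0.62). Of 21 snoRNA host genes 13 fell and 2 rose, GAS5 with 152 and 166 CPM after knockdown and 226 and 244 CPM in controls. Among DNA methylation and polycomb enzymes, where 11 of 30 fell and 9 rose, EZH2 had 43.9 and 42.1 CPM after knockdown and 129.6 and 129 CPM in controls and its relative EZH1 rose with 81.2 and 86.5 CPM after knockdown and 63.8 and 57.3 CPM in controls. DNMT1 and UHRF1, which copy methylation at replication, fell by 1.33 and 2.06, whereas TET2, which oxidises it, had 187 and 189.7 CPM after knockdown, against 102 and 94.1 CPM in the controls. Of 11 histone variants 7 fell, MACROH2A1 with 352 and 359.6 CPM after knockdown and 633 and 629 CPM in controls, and 2 rose.

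Of 28 kinesin motors 17 fell and 10 rose (median -0.99), the falls including the mitotic motors KIF11 (-1.28) and KIF18A (-1.90) and the rises the transport motors KIF3A (1.29) and KIF3B (0.92). KIF17, a neuronal and ciliary transport motor, fell furthest, with 1.25 and 1.67 CPM in the knockdown libraries and 27 and 26.7 CPM in the controls. Of 18 clock genes 8 fell (44.4%, against 28.4% of all genes) and 5 rose (27.8%, against 27.5%), with a median of 0.02. Among them the repressors PER1 and PER2 were lower by 0.96 and 0.81. CLOCK was higher, at 53.8 and 51.5 CPM after knockdown and 27.9 and 25 CPM in controls. Of 24 glutathione and NRF2 genes 11 fell and 9 rose, against 10 lower and 11 higher under scaling by library size alone. TXNRD1, thioredoxin reductase, fell by 0.86, and GCLC, of glutathione synthesis, rose by 0.47. Of 27 iron and heme genes 12 rose and 10 fell. NCOA4, which delivers ferritin to the lysosome, had 435 and 419 CPM after knockdown, against 251 and 281 CPM in the controls, and FTL, ferritin light chain, rose by 0.32. Of 9 tested protocadherin gamma genes 6 rose and none fell, all under 10 CPM; they share their last exons and strand, so their counts cannot be taken as separate.

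Actin and non-muscle myosin were among the 10 largest losses in CPM. Of the 10 largest gains, 7 were of transcripts of the mitochondrial genome, the ribosomal RNA MT-RNR2 among them. ACTB, beta-actin, lost the most CPM of any tested gene, with 4182 and 4199.7 CPM in the knockdown libraries and 8877 and 9116 CPM in the controls. MYH9, non-muscle myosin, had 464 and 474 CPM after knockdown and 1310.4 and 1260.3 CPM in controls, and AHNAK, a large scaffold protein, had 301 and 290.5 CPM after knockdown, against 1126 and 1076 CPM in the controls. AHNAK rose by 0.39 in MOLM13, a difference of -2.29 (adjusted p = 1.6e-34). PTMA, NPM1, PRKDC, ENO1, HNRNPA1 and NCL made up the rest of the nuclear genes among the 10 largest losses. The nuclear genes among the 10 largest gains were CDKN1A, the nuclear RNA MALAT1, with 2121 and 2099 CPM after knockdown and 1283 and 1169 CPM in controls, and EEF1A1, a translation factor, whose change was small (0.11, adjusted p = 0.0059) and not called without knockdown library 1 (0.08, adjusted p = 0.111) or in the 4 OCIAML5 libraries alone (0.10, adjusted p = 0.0911). Without control library 1 it was 0.05, and without control library 2 it was 0.16. By gene type in GENCODE release 29, matched by symbol for 15841 tested genes, long intergenic RNAs were higher in 26.3% and lower in 10.8% of 678 cases and antisense RNAs in 20.7% and 9.2% of 978. Protein-coding genes were higher in 29.5% and lower in 33.9% of 12543. Over all genes 27.5% were higher and 28.4% lower, so these 2 non-coding types had fewer falls but no larger share of rises. Long intergenic RNAs had a median level of 1.11 CPM, against 26.9 CPM for protein-coding genes, and the part of level in these shares was not tested. The median log2 fold changes of the 2 types were 0.40 and 0.29 in OCIAML5 and 0.58 and 0.44 in MOLM13. Processed pseudogenes had a median of 0.05 in OCIAML5.

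Beyond the genes above, the 20 largest falls among called genes (5 CPM or more in the higher group, no overlap between groups) included TIFAB, an inhibitor of TRAF6 signalling in myeloid cells, with 11 and 11.7 CPM in the knockdown libraries and 126 and 119.8 CPM in the controls. NPR3, the natriuretic peptide clearance receptor, had 7.56 and 4.33 CPM after knockdown and 70.9 and 66.5 CPM in controls, and GABRA4, a GABA receptor subunit, had 1.46 and 0.556 CPM after knockdown, against 20.7 and 20.7 CPM in the controls. TERT, the catalytic subunit of telomerase, had 0.752 and 0.722 CPM after knockdown and 9.51 and 8.85 CPM in controls, with 8.52 and 8.38 CPM in the second experiment's controls, and S1PR3, a sphingosine phosphate receptor, had 0.376 and 0.556 CPM after knockdown and 4.46 and 6.2 CPM in controls. SLC12A8, a cation-chloride cotransporter family member, had 0.125 and 0.611 CPM after knockdown and 11.6 and 12.5 CPM in controls, but 0.38 and 0.53 CPM in the second experiment's controls. CACNA2D3, DIPK1C and GPNMB completed the named falls, and 3 unnamed transcripts also met the rule. The 20 largest rises held the interferon-induced genes IFI44, IFI44L and IFIT2 and the histone genes H2BC6, H2AC6, H4C8, H2BC12 and H2BC18. IFI44, the largest, had 10.0 and 8.78 CPM after knockdown, against 0.163 and 0.379 CPM in the controls. HFE, a regulator of iron uptake, had 7.69 and 6.56 CPM after knockdown and 0.326 and 0.126 CPM in controls, and MIR22HG, a microRNA host gene, had 11.6 and 11.9 CPM after knockdown and 0.707 and 0.569 CPM in controls. Also among them was RAB40B, a small GTPase of ubiquitin ligases, with 32.2 and 30.3 CPM after knockdown, against 2.55 and 1.96 CPM in the controls. STAP1, a signalling adaptor of the KIT and B cell receptors, had 9.61 and 9.17 CPM after knockdown and 0.761 and 0.569 CPM in controls, TTYH1, a membrane protein, had 6.6 and 7.5 CPM after knockdown and 0.272 and 0.316 CPM in controls, and CFAP70, a ciliary protein, had 19 and 18.3 CPM after knockdown and 1.09 and 1.07 CPM in controls. PCDHGA10, of the protocadherin gamma genes, SEMA3B, SSPO, TG and 1 unnamed transcript also met the rule, and TG lies across the more abundant SLA, so its value is uncertain.

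The difference of the knockdown effect between OCIAML5 and MOLM13 was tested in the same fit, and 5021 genes (30.5%) were called, 18% with a more positive and 12.5% with a more negative effect in OCIAML5. At a 2-fold minimum the balance was even, with 687 positive and 694 negative differences. Across all genes the 2 sets of fold changes had a Pearson r of 0.52 and a Spearman rho of 0.58, which describes genes and not replicates. There were 602 genes (3.66%) called in both lines with opposite signs and a called difference. RTN1, an endoplasmic reticulum protein, had 142 and 133 CPM in the knockdown libraries of OCIAML5 and 30.6 and 33.4 CPM in its controls, a rise of 2.11, and was not called in MOLM13 (-1.85; difference 3.95 ± 1.29, adjusted p = 0.015). ZNF827, a zinc finger protein, rose in OCIAML5, with 41.9 and 36.1 CPM after knockdown and 17.2 and 18.1 CPM in controls, but had 0 and 0 CPM in knockdown and 0.183 and 0 CPM in control libraries of MOLM13. ZBTB16, the factor PLZF, fell in both, with 18 and 19.3 CPM in knockdown and 42.9 and 43.3 CPM in control libraries of OCIAML5 and 0.0659 and 0 CPM in knockdown and 2.28 and 1.49 CPM in control libraries of MOLM13. At the negative end, GPNMB, a glycoprotein of macrophages, had 0.752 and 0.278 CPM in knockdown and 8.26 and 7.21 CPM in control libraries of OCIAML5 and 0.132 and 0.117 CPM in knockdown and 0 and 0 CPM in control libraries of MOLM13. AASS, of lysine breakdown, whose own call in OCIAML5 was lost without knockdown library 1 (0.18) or control library 1 (0.21), under DESeq2 (adjusted p = 0.107) and with no filter on low counts (adjusted p = 0.0556), had 44.6 and 39.5 CPM in knockdown and 33.1 and 36.3 CPM in control libraries of OCIAML5 and 0.527 and 0.0586 CPM in knockdown and 0 and 0 CPM in control libraries of MOLM13. Several of these largest differences thus rest on MOLM13 libraries near 0, where the fitted value depends on the prior count and gives no bound.

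**Figure D5:**
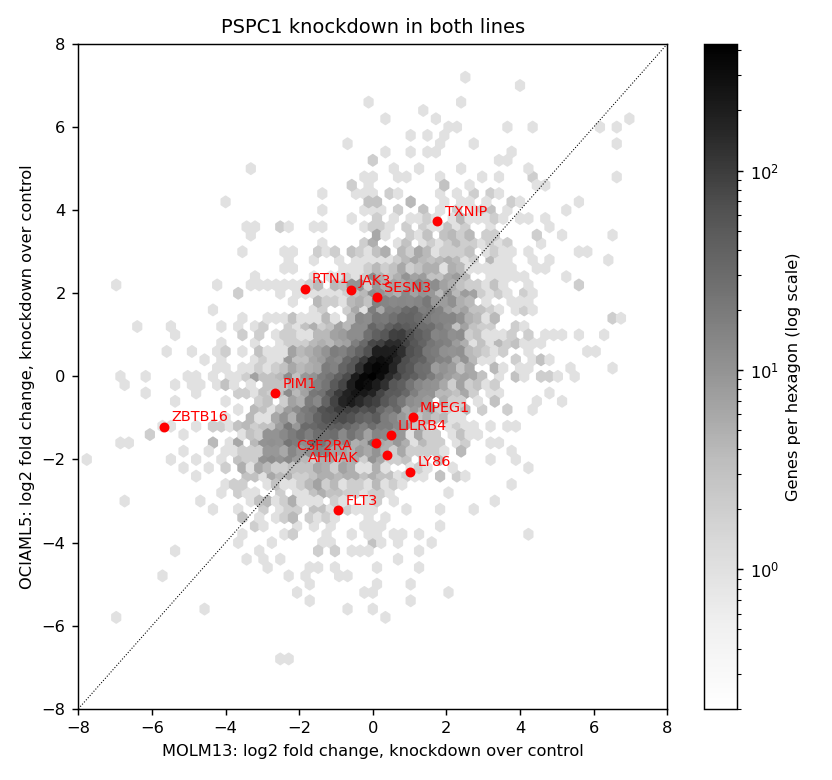
Log2 fold change of PSPC1 knockdown over control for each tested gene in OCIAML5 (vertical axis) against MOLM13 (horizontal axis), as density of genes per hexagon on a log colour scale, with genes described in the text marked in red. CSF2RA, FLT3, MPEG1, AHNAK and LILRB4 lie below the diagonal and SESN3, JAK3, RTN1 and PIM1 above it.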

How the data were processed

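Per the labels, messenger RNA libraries were made with a stranded kit from total RNA. Raw, unnormalised read counts for each gene were deposited by the authors. The submitters' processing notes name GRCh38 and 4 tools without roles: HTSeq 2.0.2, STAR 2.7.10a, DESeq2 1.36.0 and Trim Galore 0.6.7. Annotation release and strand setting: not given in the sources used here. Samples were grouped by their labels. Counts of all 8 libraries of the PSPC1 table were fitted together in edgeR 4.0.16 (R 4.3.3), with filterByExpr, TMM scaling, quasi-likelihood tests and Benjamini-Hochberg adjustment over all 16457 genes tested, at a threshold of 0.05. Depth was 15.8 to 22.7 M counts in the OCIAML5 libraries, and the biological coefficient of variation was 4.73%. Sampling noise alone did not account for replicate differences (chi-square per degree of freedom 2.61 to 4.96), so no library was a copy of another. The second experiment's controls were scaled within their own table and not tested. The method was tested on simulated data.

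The gene lists and named genes were chosen with earlier results of these data known. Named were PSPC1, the 20 largest changes each way (at least 5 CPM in the higher group, libraries apart), the 10 largest gains and losses in CPM, list members by role and smallest adjusted p, and the 10 largest differences each way. Transcripts without a gene name were counted only. Genes named for a symbol stem or a second control level were chosen after their values were seen. Alternatives were DESeq2 1.42.0, RLE size factors, library size alone, no filter, a filter of 1 CPM in 2 libraries, an adjusted p of 0.01, a 2-fold minimum, the 4 OCIAML5 libraries alone, a replicate block and leaving out each library. Promoters are from RefSeq (GRCh38.p14) and gene positions from GENCODE release 29.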

Additional observations from a re-analysis of the deposited data

Results flagged for a closer look

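The effect of PSPC1 knockdown differed between OCIAML5 and MOLM13 for 5021 genes in the test of the difference itself (edgeR, adjusted p under 0.05). All values here are differences of log2 fold changes, OCIAML5 minus MOLM13. The most negative differences were those of GPNMB (-8.10), ERG (-5.62), FIRRE (-5.61), AASS (-5.12), SLC12A8 (-4.99), MBOAT2 (-4.67), CYP2U1 (-4.30), TNFRSF11A (-3.94) and KIF17 (-3.63). A further transcript without a gene name met the rule. The call of TNFRSF11A within OCIAML5 was lost without control library 2 (-0.44, adjusted p = 0.14). The most positive were those of RALGPS2 (6.32), HEG1 (5.66), IQSEC3 (5.62), ZNF827 (5.17), TTBK1 (4.97), ZBTB16 (4.47), AMH (4.23), RTN1 (3.95), GPR34 (3.41) and SLCO4C1 (3.41). The sign gives no direction within OCIAML5. HEG1, IQSEC3, ZBTB16 and AMH were called lower in both lines and fell further in MOLM13. Within OCIAML5, AASS was called higher, and FIRRE, MBOAT2, CYP2U1, GPR34 and SLCO4C1 were not called. Apart from SLCO4C1, these genes had low levels in MOLM13, most of them near 0 CPM, so the sizes give no bound. GPR34 overlaps the more abundant CASK, so its value is uncertain.

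Of the other genes described above, the following were called in both lines with opposite signs and a called difference. Lower in OCIAML5 and higher in MOLM13 were LY86 (-3.31), LILRA2 (-2.51), AHNAK (-2.29), MPEG1 (-2.07), LILRB4 (-1.90), LAIR1 (-1.36), ITGA4 (-1.23), CSF3R (-0.81), TFEB (-0.65), CD74 (-0.56) and MT-ND2 (-0.44). Higher in OCIAML5 and lower in MOLM13 were AZU1 (2.09), CCND3 (1.42), TGFBR2 (1.15), KIF3B (1.15), GPAM (1.02), SOCS2 (1.01) and E2F4 (0.45). The calls of TFEB and E2F4 in OCIAML5 were lost without single libraries, as given above. The part of the growth factor, the medium and the line in these differences cannot be told apart, since each line had its own medium.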

How the results depend on the processing

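At a 2-fold minimum 3136 genes were called in OCIAML5, 254 list members, against 707 of 961 without it, and 1381 differences between the lines. Under every other alternative run, the 3 counts stayed within 1.5 times, with 8200, 660 and 4075 under DESeq2. Scaling by library size alone gave 5201 higher and 4183 lower genes. The balance of the differences also depended on the setting. Positive and negative differences numbered 2966 and 2055 in the main fit, 2752 and 2212 under RLE size factors and 3279 and 1907 under library size alone. Leaving out each OCIAML5 library in turn gave a median log2 fold change over all genes of 0 to 0.036. Leaving out each of the 8 libraries gave a median difference between the lines of 0.040 to 0.083.

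Same-numbered libraries did not deviate together across genes (correlation -0.000431 in OCIAML5 and 0.0335 in MOLM13). With 2 libraries in each group this cannot show whether the numbers mark a pairing. With the replicate block 9125 genes, 708 list members and 4971 differences were called.

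Log2 changes that crossed 0 were all of genes without a call. With library size alone they were 0.063 for CD33, 0.074 for CDKN1B, 0.011 for NONO and 0.068 for STAT5A, and with the 1 CPM filter 0.00019 for CDKN1B. Leaving out single libraries gave -0.079 to 0.035 for CD33, -0.062 to 0.039 for CDKN1B, -0.066 to 0.097 for PIM2, -0.15 to 0.11 for STAT5A, -0.010 to 0.093 for CTSB, -0.016 to 0.090 for DUSP6, -0.0038 to 0.13 for JAK2 and -0.0064 to 0.15 for LYZ. The cause was not tested. Of the 220 genes of the text that were examined, 5 gained a call under 1 alternative each: CTSB (0.13, adjusted p = 0.0161), CTSD (0.24, adjusted p = 0.00664) and LYZ (0.16, adjusted p = 0.0216) under library size alone, FIRRE (-0.58, adjusted p = 0.0143) in the 4 OCIAML5 libraries alone and GPR34 (1.02, adjusted p = 0.0486) without control library 1. Each group had 2 libraries, which limits the precision.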
